A study of Sus scrofa with 6 samples.

Results

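Thrombospondins, their receptor CD47 and the other matricellular proteins of this set were examined in renal medulla of 6 pigs, taken 24 hours after cardiopulmonary bypass (CPB) or a sham procedure. The members were every probe set of the array whose only annotated gene symbol was THBS1, THBS2, THBS4, CD47, SPARC, SPARCL1, TNC, POSTN, CTGF or CCN2. These were 16 of the 23999 probe sets tested, and they covered 7 of the 10 symbols, out of 6765 genes named on the array. THBS1 had 5 probe sets, CD47 had 3, SPARC, SPARCL1 and POSTN had 2 each, and THBS2 and TNC had 1 each. THBS4, CTGF and CCN2, of which the last 2 are names of the same gene, had 0 named probe sets and are not analysed here. The members were chosen by name and not by their values.

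The animals were adult female Large White-Landrace crossbred pigs. The Sham group had 2.5 hours of general anaesthesia with neck dissection and heparin, and the CPB group had 2.5 hours of bypass through the same neck approach under anaesthesia, also with heparin. Anaesthesia, surgery in the neck and heparin were thus common to both groups. Each group was represented by 3 animals with 1 Affymetrix porcine array each, made from blocks of medulla that hold tubules, vessels and interstitium together. In such bulk tissue fewer cells of a type and less RNA per cell cannot be told apart.

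Matricellular proteins are secreted into the extracellular matrix, where they act less as building material than as signals to cells, and many are low in resting adult tissue and high around wounds. Thrombospondin 1, the product of THBS1, is released by platelets, endothelium and stromal cells, activates latent TGF-beta and limits vessel growth. It binds CD47, a membrane protein of nearly all cells, through which it inhibits nitric oxide signalling in vessels. CD47 is also the "do not eat me" ligand of SIRPA on phagocytes. In the injured kidney this ligand and receptor pair is known for its role after ischaemia and reperfusion.

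The arrays did not separate by group over all probe sets. Across probe sets, Sham 2 correlated most closely with CPB 1 (r = 0.990) and CPB 2 with Sham 1 (r = 0.980), where probe sets are not independent. Proximal tubule markers other than AQP1 followed the same division. The 20 of 31 that were measured summed to intensities from 8934 to 43729 in Sham and from 9374 to 50080 in CPB, and LRP2, the endocytic receptor megalin, read 181, 2390 and 899 on Sham 1 to 3 and 2469, 169 and 2740 on CPB 1 to 3. AQP1, the exception, read 5515, 5507 and 3932 on Sham 1 to 3 and 5122, 4465 and 5547 on CPB 1 to 3. Straight proximal tubules normally reach the outer medulla. CLDN10, a claudin of the thick ascending limb, lay from 1419 to 2051 in Sham and from 1765 to 1965 in CPB. It does not stand for its whole list, of which 5 of 13 genes were measured. EGF lay from 660 to 2179 in Sham and from 701 to 1928 in CPB, and KCNJ1 from 881 to 2219 and from 835 to 2127. PTGER3 lay from 121 to 320 and from 126 to 170, and the dim CLDN14 from 44.6 to 61.6 and from 51.6 to 53.3. The medullary markers UMOD and AQP2 have no named probe set.

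Of the 16 member probe sets, 11 had a lower mean in CPB and 5 a higher mean. Over all probe sets 44.1% had a lower mean in CPB. The median difference of the members, CPB minus Sham in log2 intensity, was -0.21, and that of all probe sets was 0.03. With limma, which borrows the spread from all probe sets, 1 member reached an unadjusted p under 0.05, against 1.4% of all probe sets. That member was the brightest CD47 probe set, and it was also the only member whose groups did not overlap, which was so for 5.27% of all probe sets and, with CPB the lower group, for 1.89%. The threshold of the study, an unadjusted p under 0.05 with at least a 1.6-fold difference, was met by 0 members and by 0.304% of all probe sets. After Benjamini-Hochberg adjustment 0 members passed 0.05, as did 0% of all probe sets. The adjusted p of the members lay from 0.995 to 0.999.

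**Figure D1:**
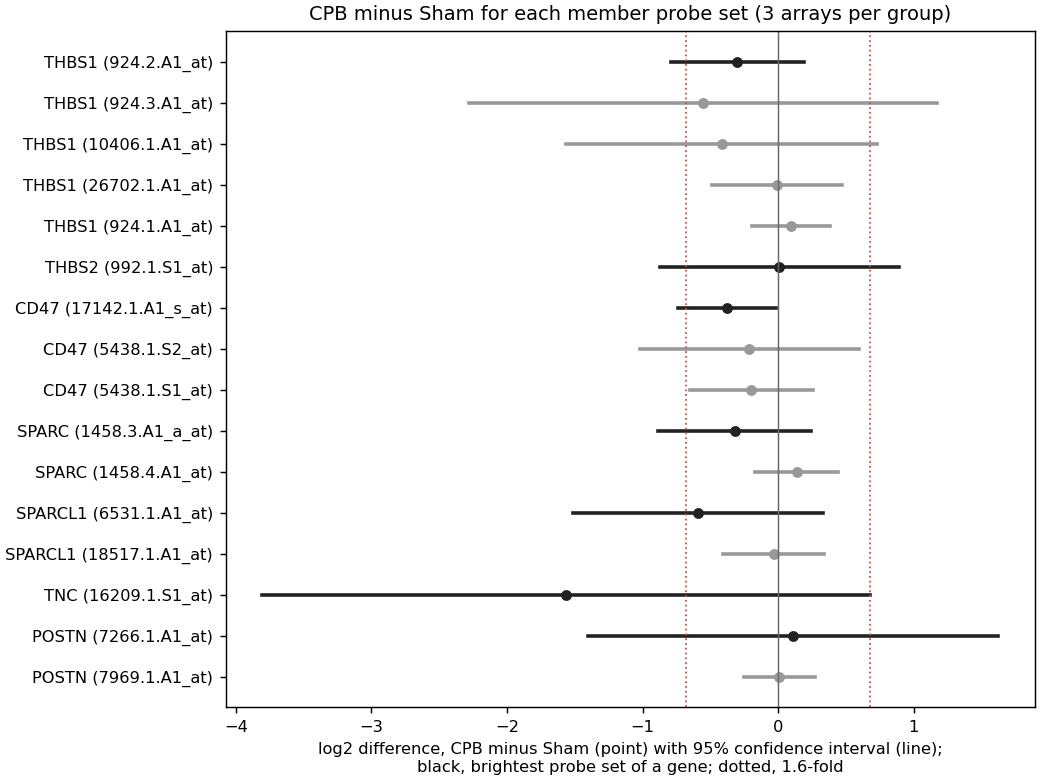
Difference CPB minus Sham in log2 intensity for the 16 member probe sets (point) with its 95% confidence interval (line), black for the brightest probe set of each gene and grey for the others, and dotted lines at 1.6-fold in either direction. The interval of the CD47 probe set 17142.1 ends just below 0, from -0.74 to -0.02, and those of the other members include 0.

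THBS1, the best known ligand of CD47, was measured by 5 probe sets that ranked the arrays differently. Their ratios, given below, could not tell unlike from like behaviour. The brightest, Ssc.924.2.A1_at, read 2073, 1609 and 1549 on Sham 1 to 3 and 1777, 1296 and 1200.0 on CPB 1 to 3. CPB 1 lay above Sham 2 and Sham 3, so the groups overlapped. The means were 1744 ± 287 in Sham and 1424 ± 309 in CPB (SD, n = 3 each). The log2 difference was -0.30, its standard error (SE) 0.20 and its 95% confidence interval -0.79 to 0.19, which includes no difference and excludes a decrease of 2-fold (limma, unadjusted p = 0.185). The difference was -0.17 without Sham 1, -0.19 without CPB 3, -0.47 without CPB 1 and -0.07 with array weights.

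The other THBS1 probe sets differed in which arrays were high and low. Ssc.924.3.A1_at read 173, 128 and 363 in Sham and 236, 49.3 and 218 in CPB, a 7.38-fold range over the 6 arrays with its lowest value on CPB 2. Ssc.10406.1.A1_at read 117, 93.4 and 42.8 in Sham and 55.2, 91.4 and 39.0 in CPB, and Sham 3 and CPB 3 were its lowest arrays. Their log2 differences of -0.55 (SE 0.71) and -0.42 (SE 0.47) were smaller than the spread between animals. Ssc.26702.1.A1_at lay from 42.3 to 55.4 in Sham and from 39.2 to 60.0 in CPB, with a difference of -0.01 (SE 0.20). Ssc.924.1.A1_at stayed between 25.03 and 30.21 on all 6 arrays, with a difference of 0.09 (SE 0.12). These 2 probe sets were dim against array medians of 94.6 to 96.9.

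THBS2, the other vessel-inhibiting thrombospondin of this subgroup, was measured by Ssc.992.1.S1_at. It read 321, 193 and 182 in Sham and 345, 154 and 216 in CPB. The highest and the lowest value were both in CPB, and the groups overlapped fully. The log2 difference was 0.01 (SE 0.36), with a confidence interval from -0.87 to 0.89 that allows differences of over 1.6-fold either way.

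CD47 was the member with the clearest difference, on 1 of its 3 probe sets. Ssc.17142.1.A1_s_at read 647, 543 and 732 on Sham 1 to 3 and 470, 467 and 533 on CPB 1 to 3. All 3 CPB arrays were below all 3 Sham arrays, but the gap was narrow, since Sham 2 at 543 and CPB 3 at 533 nearly met. The means were 641 ± 94.6 in Sham and 490.0 ± 37.2 in CPB (SD, n = 3 each). The level was 1.30-fold lower in CPB, a log2 difference of -0.38 (SE 0.15, 95% confidence interval -0.74 to -0.02, limma unadjusted p = 0.043, adjusted p = 0.995). The exact two-sided permutation p was 0.1, the smallest that 3 arrays against 3 can give.

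The other CD47 probe sets had lower means in CPB as well, with overlap. Ssc.5438.1.S1_at read 324, 288 and 401 in Sham and 295, 246 and 341 in CPB, a log2 difference of -0.20 (SE 0.19, unadjusted p = 0.325). Ssc.5438.1.S2_at read 890.4, 445 and 474 in Sham and 556, 595 and 364 in CPB, and its Sham 1 value stood far above the other arrays. Its difference was -0.21 (SE 0.33, unadjusted p = 0.542). The suffix _s_at on the lower probe set is the maker's mark for probes that match several transcripts, possibly of more than 1 gene, so its signal may not be that of CD47 alone. Averaged over its 3 probe sets, CD47 differed by -0.26 on the log2 scale (SE 0.15, unadjusted p = 0.135).

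**Figure D2:**
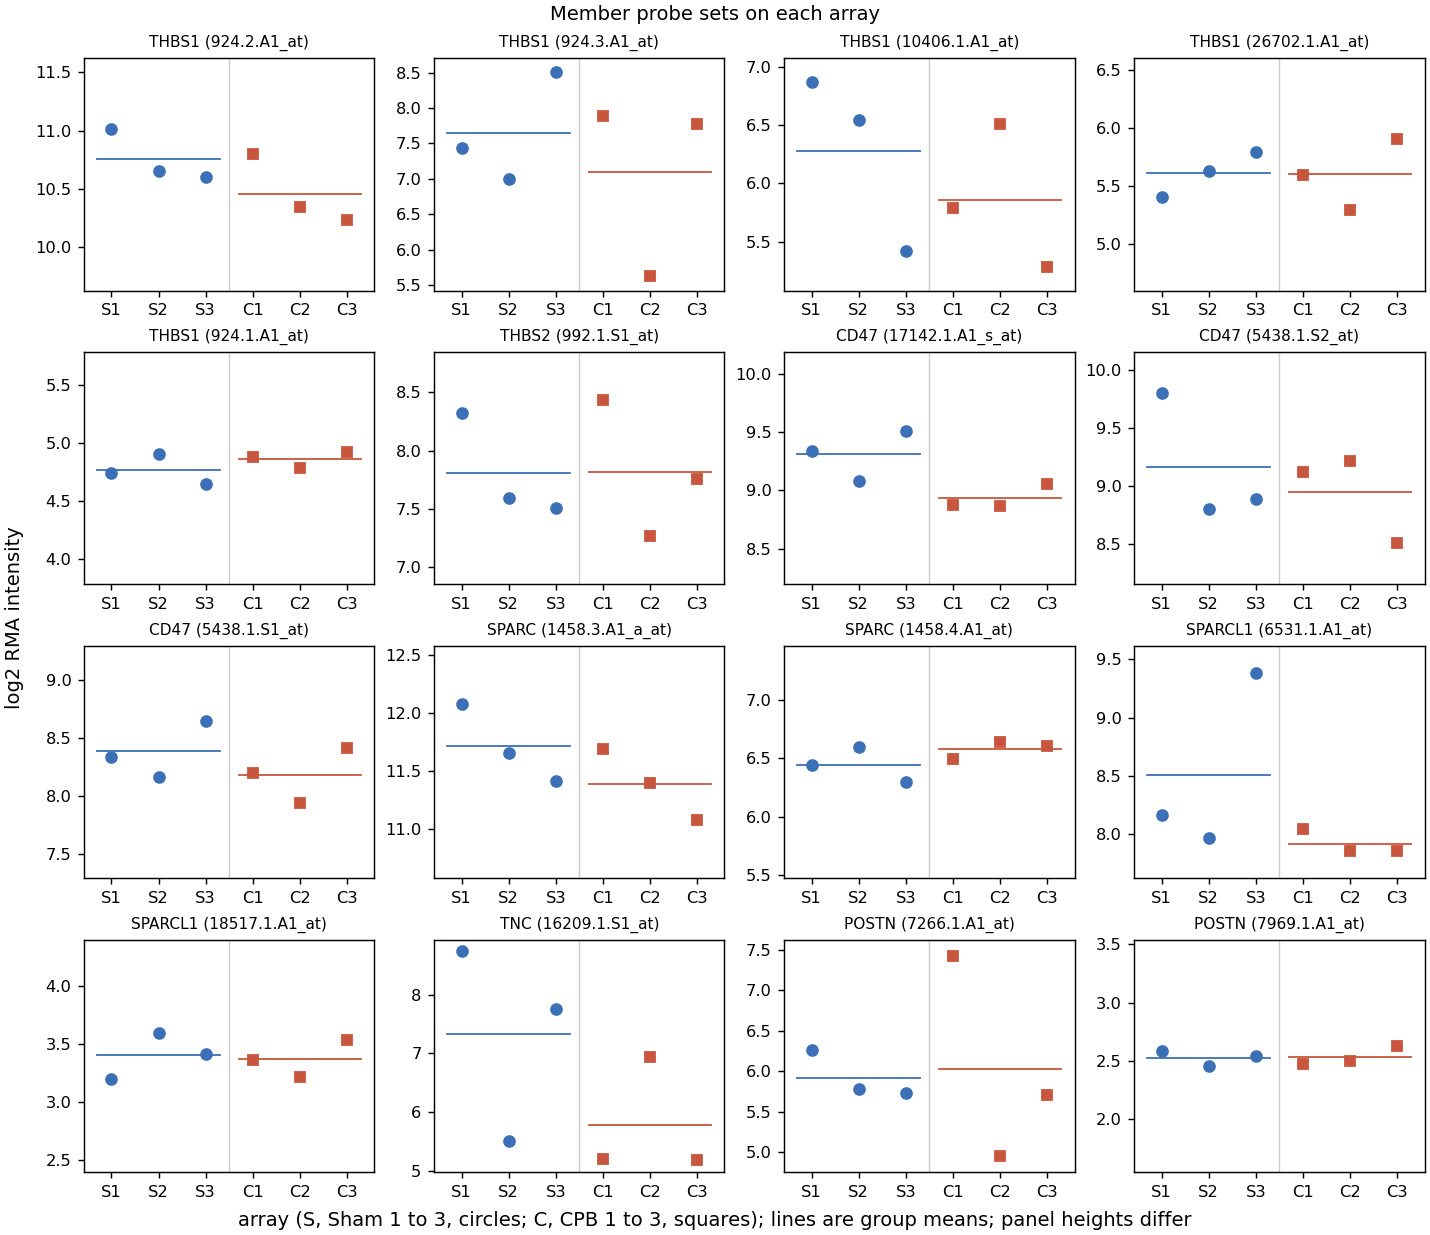
Log2 intensity of the 16 member probe sets on each array, Sham 1 to 3 as circles and CPB 1 to 3 as squares, with lines at the group means and a separate vertical range in each panel. In the panel of the CD47 probe set 17142.1 all squares lie below all circles, while in the other panels circles and squares share part of their range.

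The call for CD47 depended on the fit. Without Sham 3, its highest array, the difference was -0.28, and over the 6 fits that left out 1 array it ran from -0.49 to -0.28. Of these 6 fits, that without Sham 2 gave an unadjusted p under 0.05 (0.0126) and the others did not, with p up to 0.125. The methods' t-test gave 0.0534, limma with an intensity trend and robust prior gave 0.0835, and array weights gave 0.00372 with a difference of -0.49. Of all probe sets, 5486 had an unadjusted p under 0.05 with array weights and 2217 without Sham 2, against 336 as reported. CD47 is abundant on red cells, whose markers were measured for 3 of 9 genes and summed to 344 to 454 in Sham and 293 to 364 in CPB. They did not move as a list, since HBB, a globin chain, had a lower mean in CPB (log2 difference -0.38, SE 0.22), while ALAS2, a heme synthesis enzyme, and AHSP, a globin chaperone, had higher means (0.18, SE 0.21 and 0.11, SE 0.15). Their part in the CD47 difference was not tested. With the proximal tubule markers as a covariate the CD47 difference was -0.37 (unadjusted p = 0.0594).

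**Figure D3:**
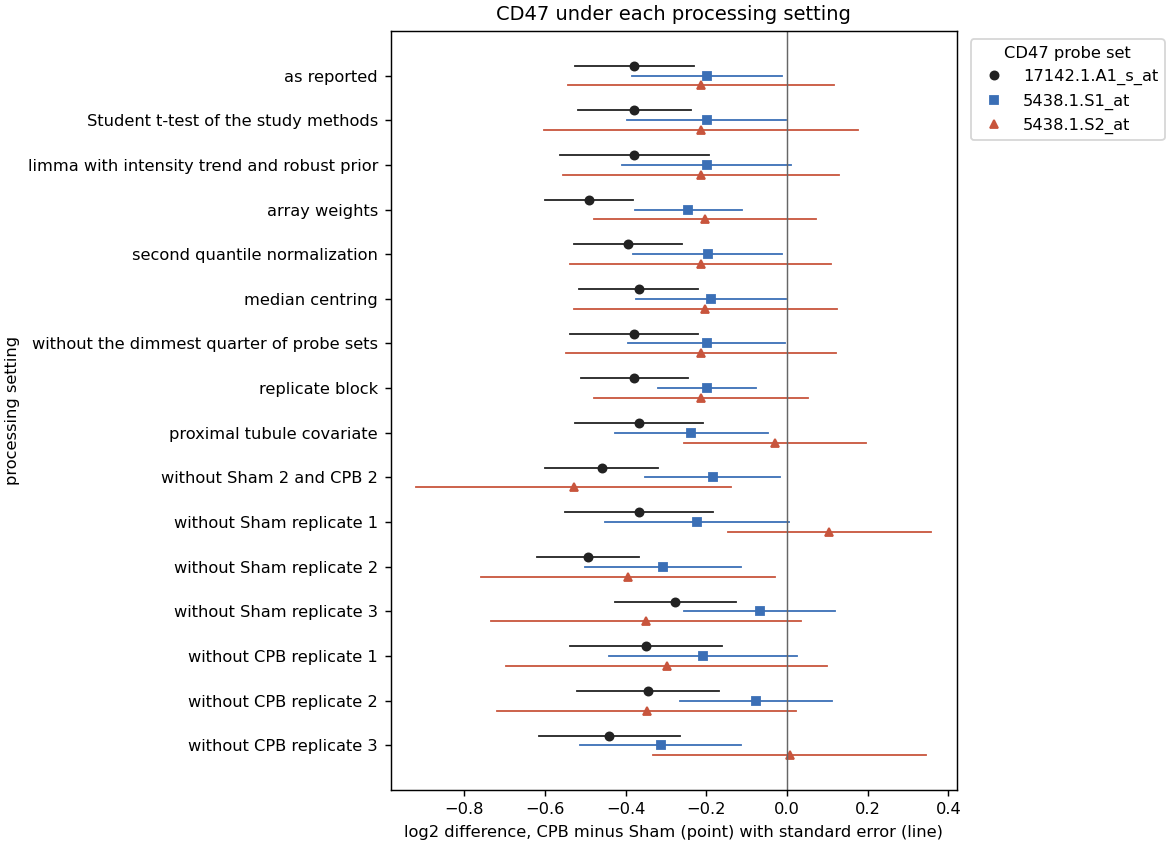
Log2 difference CPB minus Sham (point) and its SE (line) for the 3 CD47 probe sets under each processing setting, from the fit as reported at the top to the fits without 1 array at the bottom. The probe set 17142.1 stays between -0.49 and -0.28, while 5438.1.S2 moves to 0.11 when Sham 1 is left out.

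Whether the probe sets of a gene gave different answers was tested on their ratio within each array. For each of the 5 member genes with several probe sets the brightest was set against each other, 9 pairs in all, and the same was done for every gene of the array, 3304 pairs. An unadjusted p under 0.05 was reached by 0 of the 9 member pairs and by 0.666% of all pairs. For CD47 the ratio of Ssc.17142.1.A1_s_at to Ssc.5438.1.S1_at was 1.00, 0.92 and 0.87 in Sham and 0.67, 0.93 and 0.64 in CPB on the log2 scale. CPB 2 lay among the Sham arrays. The difference of the ratio was -0.18 (95% confidence interval -0.56 to 0.20), so the lower level on 1 CD47 probe set was not shown to differ from that on the others. The most precise THBS1 pair, Ssc.924.2.A1_at against Ssc.924.1.A1_at, gave -0.39 (-0.95 to 0.16), and the least precise, against Ssc.924.3.A1_at, gave 0.25 (-1.38 to 1.88). These intervals are wide enough that unlike behaviour of the probe sets cannot be told from like behaviour. Some partners were also dim. The means of THBS1 Ssc.924.1.A1_at, SPARCL1 Ssc.18517.1.A1_at and POSTN Ssc.7969.1.A1_at were above those of 19.1%, 5.51% and 0.138% of probe sets. Ratios to such dim probe sets, the most precise THBS1 pair among them, mainly follow the brightest probe set and cannot show like or unlike behaviour.

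**Figure D4:**
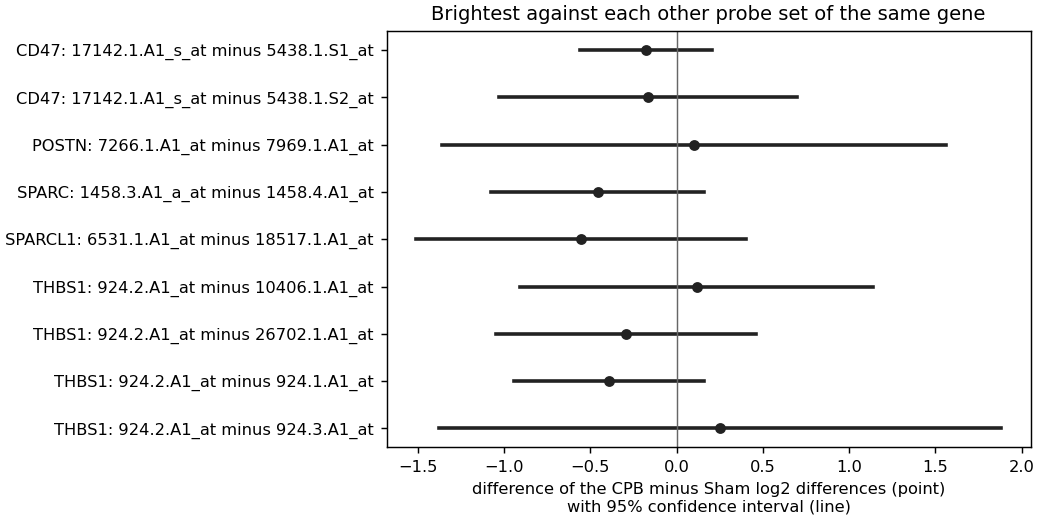
Difference between the log2 CPB minus Sham values of the brightest and each other probe set of the same member gene (point) with its 95% confidence interval (line), for 9 pairs in 5 genes. Every interval includes 0, and that of the THBS1 pair with 924.3 runs from -1.38 to 1.88.

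SPARC, a collagen-binding matricellular protein of stroma and endothelium, was measured by 2 probe sets. Ssc.1458.3.A1_a_at read 4307, 3220.2 and 2727 in Sham and 3305, 2701 and 2169 in CPB. From highest to lowest the arrays were Sham 1, CPB 1, Sham 2, Sham 3, CPB 2 and CPB 3, which is the same order as on the brightest THBS1 probe set. The means were 3418 ± 809 and 2725 ± 568 (SD, n = 3 each), and the log2 difference of -0.32 (SE 0.23, 95% confidence interval -0.89 to 0.25) was within the spread between animals. It was -0.14 without Sham 1, -0.17 without CPB 3 and -0.11 with array weights. The dimmer Ssc.1458.4.A1_at lay from 78.5 to 97.1 in Sham and from 90.3 to 100.1 in CPB, with a difference of 0.14 (SE 0.12). The ratio of the SPARC probe sets differed by -0.46 (95% confidence interval -1.07 to 0.16, unadjusted p = 0.121).

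SPARCL1, a relative of SPARC that is abundant in vessels, had a lower CPB mean that lay mostly in 1 array. Ssc.6531.1.A1_at read 286, 249 and 669 on Sham 1 to 3 and 263, 231 and 231 on CPB 1 to 3. Sham 3 stood far above every other array, and the other Sham arrays lay close to CPB. The log2 difference was -0.59 (SE 0.38, unadjusted p = 0.170) and was -0.15 without Sham 3. Urothelial markers were measured for 4 of 14 genes, and their mean was also highest on Sham 3, at 1.70 above the mean of the 6 arrays on the log2 scale. They summed to 196 to 1931 in Sham and 184 to 1054 in CPB, with UPK1B, a urothelial membrane protein, at 1208 on Sham 3 and from 28.4 to 207 elsewhere. The defining marker UPK2 stayed between 58.4 and 86.0. UPK3A, the other of the 4, peaked on CPB 2 at 837 and not on Sham 3, where it read 528, and it was named after its values were seen. The part of urothelium in the SPARCL1 value was not tested. Ssc.18517.1.A1_at was near the bottom of the scale, from 9.21 to 12.1, with a difference of -0.03 (SE 0.15).

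TNC encodes tenascin C, a matrix glycoprotein of embryonic and injured stroma and of smooth muscle, and its probe set varied most among the 16. Ssc.16209.1.S1_at read 428, 45.3 and 217 on Sham 1 to 3 and 36.8, 123 and 36.2 on CPB 1 to 3. The highest value was 11.8-fold above the lowest, and the SD over the 6 arrays was 1.5 on the log2 scale, larger than that of 99.1% of probe sets. Sham 2 lay with CPB 1 and CPB 3, and CPB 2 lay between the other Sham arrays and these, so the groups overlapped. The difference of -1.56 was the largest among the members, but its SE was 0.92 and its 95% confidence interval ran from -3.80 to 0.68 (unadjusted p = 0.139).

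The TNC difference moved with the proximal tubule markers and with the arrays used. Sham 1, Sham 3 and CPB 2, where TNC was high, were the arrays where the proximal tubule list was below its mean, at -2.18, -0.29 and -1.63 on the log2 scale in that order. On these arrays and no others the smooth muscle, collecting duct, urothelial and endothelial lists were all above their means, so the pattern was not particular to smooth muscle. Of the smooth muscle list 7 of 10 were measured, with sums from 2614 to 7750 in Sham and from 2324 to 6347 in CPB. With the proximal tubule mean as a covariate the TNC difference was -0.94 (unadjusted p = 0.0339, in a fit where 0 of all probe sets passed the adjusted p) and met the threshold of the study. Without Sham 2 it was -2.48 (unadjusted p = 0.0151), in a fit where 2217 of all probe sets had an unadjusted p under 0.05. Without Sham 1 it was -0.86. Without both Sham 2 and CPB 2, which stood apart from their groups in earlier results of these data, it was -3.06 (adjusted p = 0.0402), in a fit where 719 of all probe sets passed the adjusted p. Removing arrays because they resemble the other group widens differences by construction.

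POSTN encodes periostin, a matricellular protein of collagen-rich stroma that is low in healthy kidney. Ssc.7266.1.A1_at read 76.7, 54.7 and 53.1 in Sham and 172, 31.0 and 52.2 in CPB. CPB held both the highest and the lowest array, as it did for THBS2, and these were again CPB 1 and CPB 2. The log2 difference was 0.11 (SE 0.62, unadjusted p = 0.868) and turned to -0.59 without CPB 1. Ssc.7969.1.A1_at lay from 5.49 to 6.18 on all arrays, with a difference of 0.01 (SE 0.11), so it carried little signal to compare.

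**Figure D5:**
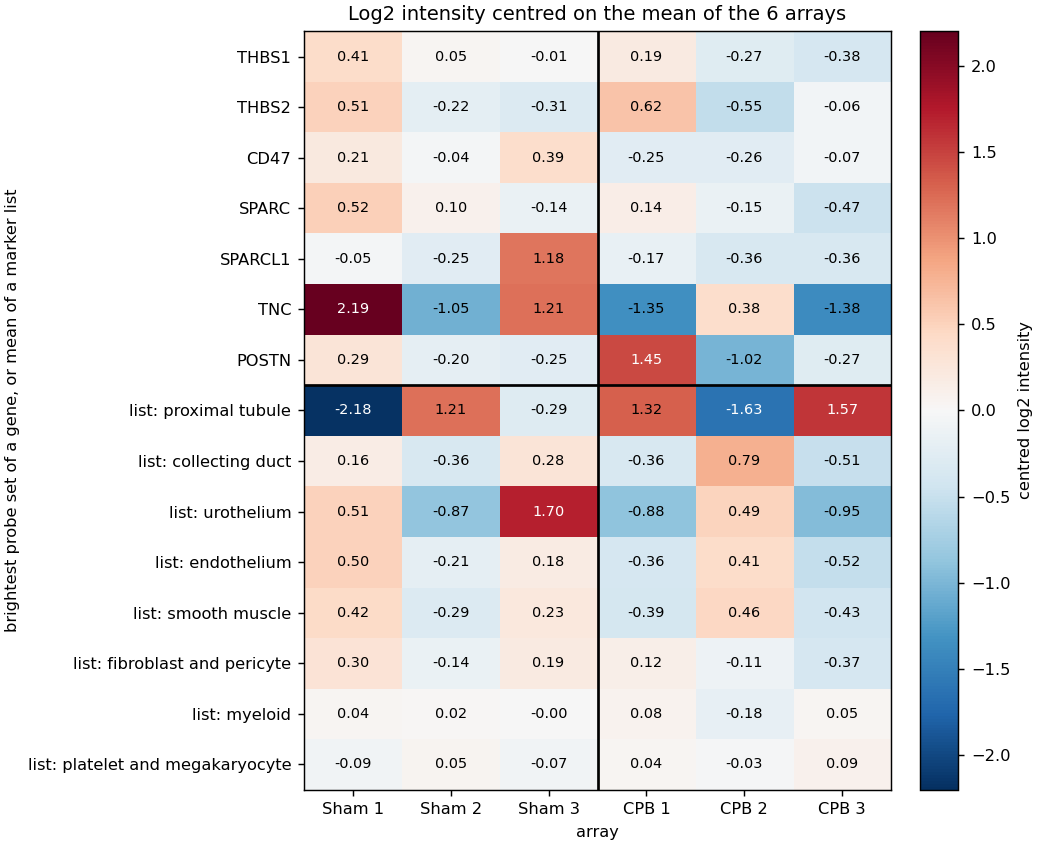
Log2 intensity of the brightest probe set of each member gene, and the means of chosen cell type marker lists, on the 6 arrays, centred on the mean of the 6 arrays (red above, blue below). The lists are proximal tubule, collecting duct, urothelium, endothelium, smooth muscle, fibroblast and pericyte, myeloid, and platelet and megakaryocyte. Those of thick ascending limb and red cell are not drawn. TNC is at 2.19 on Sham 1 and -1.38 on CPB 3, and the proximal tubule list is at -2.18 and 1.57 on the same arrays.

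By their brightest probe sets, 5 of the 7 member genes had a lower mean in CPB and 2 a higher one, with a median log2 difference of -0.32. The order from the most negative was TNC at -1.56, SPARCL1 at -0.59, CD47 at -0.38, SPARC at -0.32, THBS1 at -0.30, THBS2 at 0.01 and POSTN at 0.11. Neighbours in this order differed by less than the larger of their SEs, apart from TNC and SPARCL1, whose gap was just over the SE of TNC. By the brightest named probe set of each gene, the stromal marker list was evenly divided. Of 20 fibroblast and pericyte genes 14 were measured, 7 with a higher and 7 with a lower mean in CPB, with a median of -0.08, sums from 4168 to 8284 in Sham and from 3155 to 5263 in CPB, and 0 with an unadjusted p under 0.05. The collagen gene COL3A1 was counted among the 7 with a higher mean, at 0.06 (SE 0.18). The paper lists COL3A1 among its lower genes, on a different probe set that was not counted here. The even division thus holds only for the probe sets used. The defining marker COL1A1 has no named probe set. RGS5, a pericyte gene, had the smallest p of the list at 0.0823, with a difference of -1.44 (SE 0.69).

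Platelets store thrombospondin 1, and their markers were sparse on the array. Of 11 platelet and megakaryocyte genes 3 were measured, with sums from 251 to 289 in Sham and from 280.3 to 294 in CPB. The chemokine PPBP lay from 13.8 to 16.6 over all arrays, and PF4 has no named probe set. GP9, a subunit of the platelet receptor for von Willebrand factor, was at 108 to 121 in Sham and 124 to 130 in CPB, a log2 difference of 0.17 (SE 0.10, unadjusted p = 0.158). The integrin subunit ITGA2B differed by 0.07 (SE 0.12).

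Other matricellular genes gave 0 calls. Of 34 listed, 12 were measured, 4 with a higher and 8 with a lower mean in CPB, with a median of -0.26 and 0 with an unadjusted p under 0.05. The median was -0.00046 without Sham 1, -0.46 without Sham 2 and -0.04 with the proximal tubule covariate. THBS3, a thrombospondin of the subgroup that does not inhibit vessel growth, lay from 43.9 to 53.4 in Sham and from 51.1 to 60.2 in CPB (log2 difference 0.20, SE 0.13). LGALS1, the carbohydrate-binding galectin 1, differed by -0.76 (SE 0.62). CYR61, a relative of CTGF that is also called CCN1, read 789.6, 176 and 287 in Sham and 164, 277 and 213 in CPB. Its difference of -0.68 (SE 0.56) rested on Sham 1, the only array above 287.

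Receptors and partners of thrombospondins and CD47 were measured for 11 of 17 genes, 7 with a higher and 4 with a lower mean, with a median of 0.08 and 0 with an unadjusted p under 0.05. CALR encodes calreticulin, which is a partner of thrombospondin 1 at the cell surface and an "eat me" signal opposed to CD47. It read 229, 211 and 209 in Sham and 231, 439 and 265 in CPB. The groups did not overlap, as for 5.27% of all probe sets in either direction, and the margin was 229 against 231. The difference was 0.47 (SE 0.25, unadjusted p = 0.111). The integrin subunit ITGAV differed by -0.39 (SE 0.22) and the syndecan SDC4, a heparan sulphate proteoglycan, by 0.30 (SE 0.22). SIRPA, the phagocyte receptor of CD47, was named after its values were seen, and its difference was -0.12 (SE 0.16), from 82.2 to 96.1 in Sham and from 67.9 to 96.4 in CPB.

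Receptors of SPARC, tenascin C, periostin and CTGF were measured for 9 of 14 genes, 2 with a higher and 7 with a lower mean, with a median of -0.09 and 0 with an unadjusted p under 0.05. ITGAM, an integrin subunit of myeloid cells, lay from 23.5 to 29.4 in Sham and from 31.6 to 33.0 in CPB without overlap. Such separation, in either direction, was found for 5.27% of all probe sets. ITGAM was dim, with a mean above 19.6% of probe sets, and its difference was 0.30 (SE 0.12, unadjusted p = 0.0505). It is also the first of the myeloid markers, of which 11 of 15 were measured with sums from 1051 to 1251 in Sham and from 895 to 1096 in CPB. FCER1G and TYROBP, signalling adaptors of myeloid cells, differed the other way by -0.34 (SE 0.17) and -0.31 (SE 0.16). TLR4, a pattern receptor that tenascin C activates, differed by -1.03 (SE 0.82) and the adhesion molecule VCAM1 by -0.76 (SE 0.54).

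Genes downstream of CD47 and SIRPA were measured for 5 of 14, with a median of -0.07 and 0 with an unadjusted p under 0.05. GUCY1B3, a subunit of the nitric oxide receptor guanylate cyclase that CD47 restrains, read 666, 188 and 535 in Sham and 247, 387 and 129 in CPB (log2 difference -0.82, SE 0.60). Sham 2 was again low and CPB 2 high for its group. The small GTPase RAC1 differed by -0.15 (SE 0.14) and PTPN6, the phosphatase that SIRPA recruits, by 0.04 (SE 0.17). CTGF itself is a target of the YAP and TEAD transcription factors, and 7 of 16 genes of that pathway were measured. All 7 had a lower mean in CPB, with a median of -0.19 and 0 with an unadjusted p under 0.05, and the smallest p belonged to the stress-induced ANKRD1 (-0.41, SE 0.48), LATS2, a kinase that restrains YAP (-0.19, SE 0.25), and CRIM1, a transmembrane target gene (-0.26, SE 0.45). The median of the list was 0.03 without Sham 1, -0.48 without Sham 2 and 0.02 with the proximal tubule covariate, so its sign was not stable.

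The study set PECAM1 and CPE beside the thrombospondin 1 and CD47 axis, and both had been chosen on these arrays, so their values are a description. For THBS1 and CD47 the paper reports no change of expression in its data. For CPE it also reports lower protein by Western blot, and a similar tendency by real-time PCR that was not significant. PECAM1, an adhesion molecule of endothelium, read 518, 333 and 458 in Sham and 250.1, 307 and 221 in CPB on Ssc.14558.1.S1_at, and the groups did not overlap. It was lower by a log2 difference of -0.74 (SE 0.21) there and of -0.75 (SE 0.29) on Ssc.6050.1.A1_at, where the groups overlapped. CPE, a carboxypeptidase that processes peptide hormones, read 1084, 400.9 and 736 in Sham and 331, 211 and 244 in CPB, a difference of -1.41 (SE 0.39). All 3 probe sets met the threshold of the study and had an adjusted p of 0.995. The endothelial list as a whole had 14 of 18 genes measured, 6 higher and 8 lower, with a median of -0.31 and sums from 2746 to 5136 in Sham and from 2056 to 4204 in CPB. On the log2 scale the CD47 difference of -0.38 was thus smaller than those of PECAM1 and CPE, and that of THBS1, -0.30, was smaller again. The order of CD47 and THBS1 rested on the brightest probe sets. On the other CD47 probe sets the difference was -0.20 and -0.21, and Ssc.5438.1.S2_at was nearly as bright (above 90.4% of probe sets, against 90.9%). Averaged over all probe sets of a gene, CD47 was at -0.26 and THBS1 at -0.24. None of these differences between genes was tested.

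The genes most like TNC, POSTN and SPARCL1, the 3 members that varied most by their brightest probe sets, were found by the root mean square difference of centred log2 values over the 6 arrays. For TNC these were C2CD2 (0.36), APCDD1 (0.37) and CAV1 (0.38), and CAV1, the caveolar protein caveolin 1, read 1813, 310.2 and 1417 in Sham and 279, 980.4 and 370.1 in CPB. Their high arrays were Sham 1, Sham 3 and CPB 2, as for TNC. Since all these nearest genes were picked for likeness on the same 6 arrays, shared high arrays follow from that choice. For POSTN the nearest were TNFSF10 (0.33), LOC100524999 (0.34) and FAM46A (0.35), all highest on CPB 1. For SPARCL1 they were the urothelial gene UPK1A (0.14), APPL1 (0.15) and CD46 (0.16), all highest on Sham 3, where UPK1A read 109 against 30.3 to 40.4 on the other arrays.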

How the data were processed

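Total RNA from renal medulla of 3 Sham and 3 CPB pigs was hybridised to 1 Affymetrix porcine array per animal. The authors normalised the arrays together with RMA, which subtracts background, equalises the distributions by quantiles and summarises probes by median polish, and deposited intensity values for 24123 probe sets on a linear scale, as read from their size and range. Detection above background cannot be read from them. The log2 of the deposited values was taken first. After removal of 124 control probe sets, 23999 were tested for CPB against Sham with limma 3.58.1 (lmFit and eBayes, R 4.3.3) in a model of group alone, and p-values were adjusted across them by Benjamini-Hochberg. The methods name an unadjusted Student t-test, which was an alternative. Ratios of probe sets of a gene were fitted in the same way.

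Gene names come from the array annotation, in which 10099 probe sets have 1 symbol, 198 have several and 13826 are unlisted and unnamed here. CPE was named through the study's own gene list. No genome build is named, so no positions or sequences are given. The probe set with the highest mean stood for a gene. Members and lists, and the covariate and array choices among the alternatives, were set with earlier results of these data known. Named genes were every member, up to 3 genes of each list by smallest p, defining markers, CPE, PECAM1 and the nearest genes of 3 members. SIRPA, UPK3A, AQP1 and COL3A1 were added after their values were seen. EGF and KCNJ1 are also named outside this rule.

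The replicate numbers share no animal, litter or day in the labels. Nothing given here links arrays to a batch. The fit was run on simulated data with independent noise for each probe set. Such data lack the pattern that arrays of unlike group share here, so the run cannot show how the fit behaves under it. The number of arrays, 3 per group, limits the precision. Marker lists for collecting duct (median log2 difference -0.12), thick ascending limb (0.02), smooth muscle (-0.13), myeloid cells (0.08) and red cells (0.11) had 0 genes with an unadjusted p under 0.05. The proximal tubule list had a median of 0.85, the urothelial list -0.70 and the platelet list 0.07. Several of these medians change sign or size when 1 array or the dim probe sets are left out.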

Additional observations from a re-analysis of the deposited data

How the results depend on the processing

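The CD47 difference on its brightest probe set stayed negative in every fit run, and the threshold of the study was met by no CD47 or THBS1 probe set in any of them. The count of member probe sets with an unadjusted p under 0.05, 1 as reported, was 0 with the methods' t-test, with a trend and robust prior and without the dimmest 25% of probe sets, 2 with array weights, a fit that stopped before full convergence, and without Sham 2 and CPB 2, and 0 to 2 when 1 array was left out. The count at the threshold of the study, 0 as reported, was 1, the TNC probe set, with array weights, with the proximal tubule covariate and without Sham 2 and CPB 2, and 0 to 1 with 1 array left out, where it was 1 without Sham 2. The same counts hold for the brightest probe sets. Of the genes in the pathway lists, 0 as reported, 11 met it with array weights and 11 without Sham 2 and CPB 2, and 0 to 3 with 1 array left out. The count of member pairs was 1 with the replicate block (SPARC), 1 without Sham 2 and CPB 2 (SPARCL1) and 0 to 1 with 1 array left out. Counts over all pairs were not made for these alternatives. The cause of these changes was not tested. An unadjusted p under 0.05 was given to 336 of all probe sets as reported and to 499 with the methods' t-test. With array weights it was given to 5486, without Sham 2 and CPB 2 to 5626, and without Sham 2 to 2217. Over all probe sets, 73 met the threshold of the study, 30 with the methods' t-test, 109 with the proximal tubule covariate, 2116 with array weights, 3070 without Sham 2 and CPB 2, 701 without Sham 2 and 693 without CPB 2. Fold minimums of 1.5 and 2 left the member count at 0.

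Differences near 0 changed sign. SPARCL1 on Ssc.18517.1.A1_at, -0.03 as reported, was 0.026 with array weights, 0.14 without Sham 2 and CPB 2 and -0.13 to 0.062 with 1 array left out. THBS1 on Ssc.26702.1.A1_at, -0.01 as reported, was 0.0094 with array weights, 0.0026 with median centring, 0.16 without Sham 2 and CPB 2 and -0.16 to 0.14 with 1 left out. POSTN on Ssc.7969.1.A1_at, 0.01 as reported, was -0.055 with array weights, -0.0087 with a second quantile normalization, -0.012 without Sham 2 and CPB 2 and -0.040 to 0.036 with 1 left out. With the proximal tubule covariate POSTN on Ssc.7266.1.A1_at was -0.048 and THBS2 was -0.012, and with 1 array left out they ran from -0.59 to 0.65 and from -0.30 to 0.28. With 1 left out the CD47 probe set Ssc.5438.1.S2_at ran from -0.39 to 0.11 and the THBS1 probe set Ssc.924.3.A1_at from -0.95 to 0.18. The CD47 probe set turned positive without Sham 1 and without CPB 3, and the THBS1 probe set without CPB 2.

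The medians of the gene lists moved with single arrays. With 1 array left out the proximal tubule median ran from -0.03 (without Sham 1) to 1.95 (without CPB 2), urothelium from -1.33 (without Sham 2) to -0.16 (without Sham 3), collecting duct from -0.51 to 0.18, thick ascending limb from -0.35 to 0.15, endothelium from -0.60 to -0.09, fibroblasts and pericytes from -0.34 to -0.01, CD47 and SIRPA signalling from -0.30 to 0.05, and the receptors of SPARC, tenascin C, periostin and CTGF from -0.28 to -0.06. Without the dimmest 25% of probe sets the myeloid median was -0.31 and the red cell median -0.10, both of opposite sign to those reported. The brightest SPARC probe set ran from -0.47 to -0.14 and the brightest THBS1 probe set from -0.47 to -0.17 with 1 array left out.

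The labels do not pair the animals by replicate number. Deviations from the group means correlated across probe sets at -0.39, -0.68 and -0.02 between arrays of the same number. Between arrays of unlike number the values ran from -0.71 to 0.70, so such correlations cannot show or exclude a shared day or litter. With the replicate block the CD47 difference was unchanged at -0.38 by construction, with an unadjusted p of 0.0486.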
